A study of Canis lupus familiaris with 6 samples.

Results

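Mitochondrial ribosomal proteins are the nuclear-encoded proteins of the ribosome that works inside mitochondria. The genes were taken from the annotation of the array by symbol: every probe set listed under exactly 1 symbol made of MRPL or MRPS and a number, with or without a final A, B or C. This gave 73 genes on 162 probe sets, of 15115 genes on 29254 probe sets with 1 symbol. The large subunit names (MRPL) covered 47 genes on 102 probe sets and the small subunit names (MRPS) 26 genes on 60 probe sets. All of these probe sets were used without a filter, and a gene's value is the mean of its probe sets. A further probe set was listed under both MRPS22 and LOC477924 and was left out.

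The mitochondrial ribosome translates the few proteins encoded in mitochondrial DNA, all of them subunits of the respiratory chain and ATP synthase, so the heart, which is rich in mitochondria, depends on it. Its small subunit decodes the messenger RNA, and its large subunit joins the amino acids and releases the chain towards the inner membrane. Many of its proteins have counterparts in bacterial ribosomes and the others are found only in mitochondria. In humans, inherited variants of several of these genes, MRPL3 and MRPS22 among them, have been described in children with cardiomyopathy.

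Left ventricular tissue of 6 dogs was profiled, with 1 Affymetrix array per dog. The affected dogs, 3 in number, were Great Danes with cardiomyopathy, and their tissue is called DCM in the labels: affected 1 was a female of 9 years, and affected 2 and affected 3 were males of 7 years. The control group held 3 dogs of other breeds: control 1 was a male Labrador retriever of 12 years, control 2 a female St. Bernard of 10 years and control 3 a male Greater Swiss Mountain dog of 4 years. Breed went with disease in every dog, so disease and breed cannot be told apart.

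The deposited values are differences on a log2 scale from the median that each probe set had over all 6 dogs, so a value above 0 is above that median, and no gene's level of expression can be read from them. For the same reason cardiomyocyte markers, of which 9 of 10 had a probe set, could show differences between hearts but not the identity of the tissue. Control 3 stood apart, with 1683 probe sets of the whole table below -1, against 161 to 379 on the affected arrays and 429 and 510 on the other controls. The 17 control probe sets for unexpressed tags ran lower on every affected array than on every control, at medians of -0.03, -0.03 and -0.01 on affected 1, 2 and 3, and 0.06, 0.01 and 0.11 on control 1, 2 and 3. Of all probe sets, 41.5% followed these tags over the arrays at a correlation above 0.9, but only 12 (7.41%) of the 162 mitochondrial ribosomal ones did, on 11 genes, and no gene had only such probe sets. Because the tags ran lower on every affected array, a probe set that follows them is mostly lower in affected hearts too. Leaving such probe sets out, here and below, thus shifts shares towards higher values in affected hearts by the choice itself. In whole tissue, fewer cells of a type and less RNA per cell cannot be told apart.

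Affected and control hearts were compared gene by gene, to ask whether transcripts of the mitochondrial ribosome differ in the diseased ventricle. None of the 73 genes passed the threshold of 0.05 after Benjamini-Hochberg adjustment over all genes (limma, smallest adjusted p = 0.322), and neither did any other gene, so the background rate of calls was 0.0%. Differences were small. They ran from -0.55 to 0.66 on the log2 scale, 5 genes differed by more than 0.5 in either direction, and 28 by less than 0.1. The standard error (SE) of a gene's difference had a median of 0.139 and ran from 0.0527 to 0.508.

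At an unadjusted p under 0.05, which controls no false calls, 6 of the 73 genes were higher in affected hearts, or 8.22%, against 4.88% of all genes, and 3 were lower, or 4.11%, against 5.64% of all genes. Among the 7378 genes with no probe set that followed the unexpressed tags, 8.66% were higher at that p and 3.33% lower, close to the shares of the mitochondrial ribosomal genes. That set was picked by a pattern tied to the groups, so no conclusion is drawn from the closeness. In the probe set fit, 16 of the 162 were higher at an unadjusted p under 0.05, against 4.53% of all probe sets, and 3 were lower, against 6.32%, and 0 passed the adjusted threshold, against 0.00233% of all probe sets (limma, smallest adjusted p of the 162 0.296). The 6 higher genes were MRPS18B, MRPS14, MRPS26, MRPL37, MRPL52 and MRPL40. The 3 lower ones were MRPL4, MRPS22 and MRPL45. After each array was centred on its own median the counts became 10 higher and 0 lower, against 6.55% and 2.23% of all genes, and after quantile normalization 7 higher and 1 lower, against 6.1% and 6.95%. Without the probe sets that followed the tags there were 4 higher and 1 lower, against 6.86% and 2.26% of the 10130 genes left. The lower count was 0 without affected 1, 1 without control 1, control 2 or affected 3, and 5 without control 3. The share of all genes lower at that p was 24.0% without control 2 and between 1.85% and 3.97% without any of these other arrays.

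**Figure D1:**
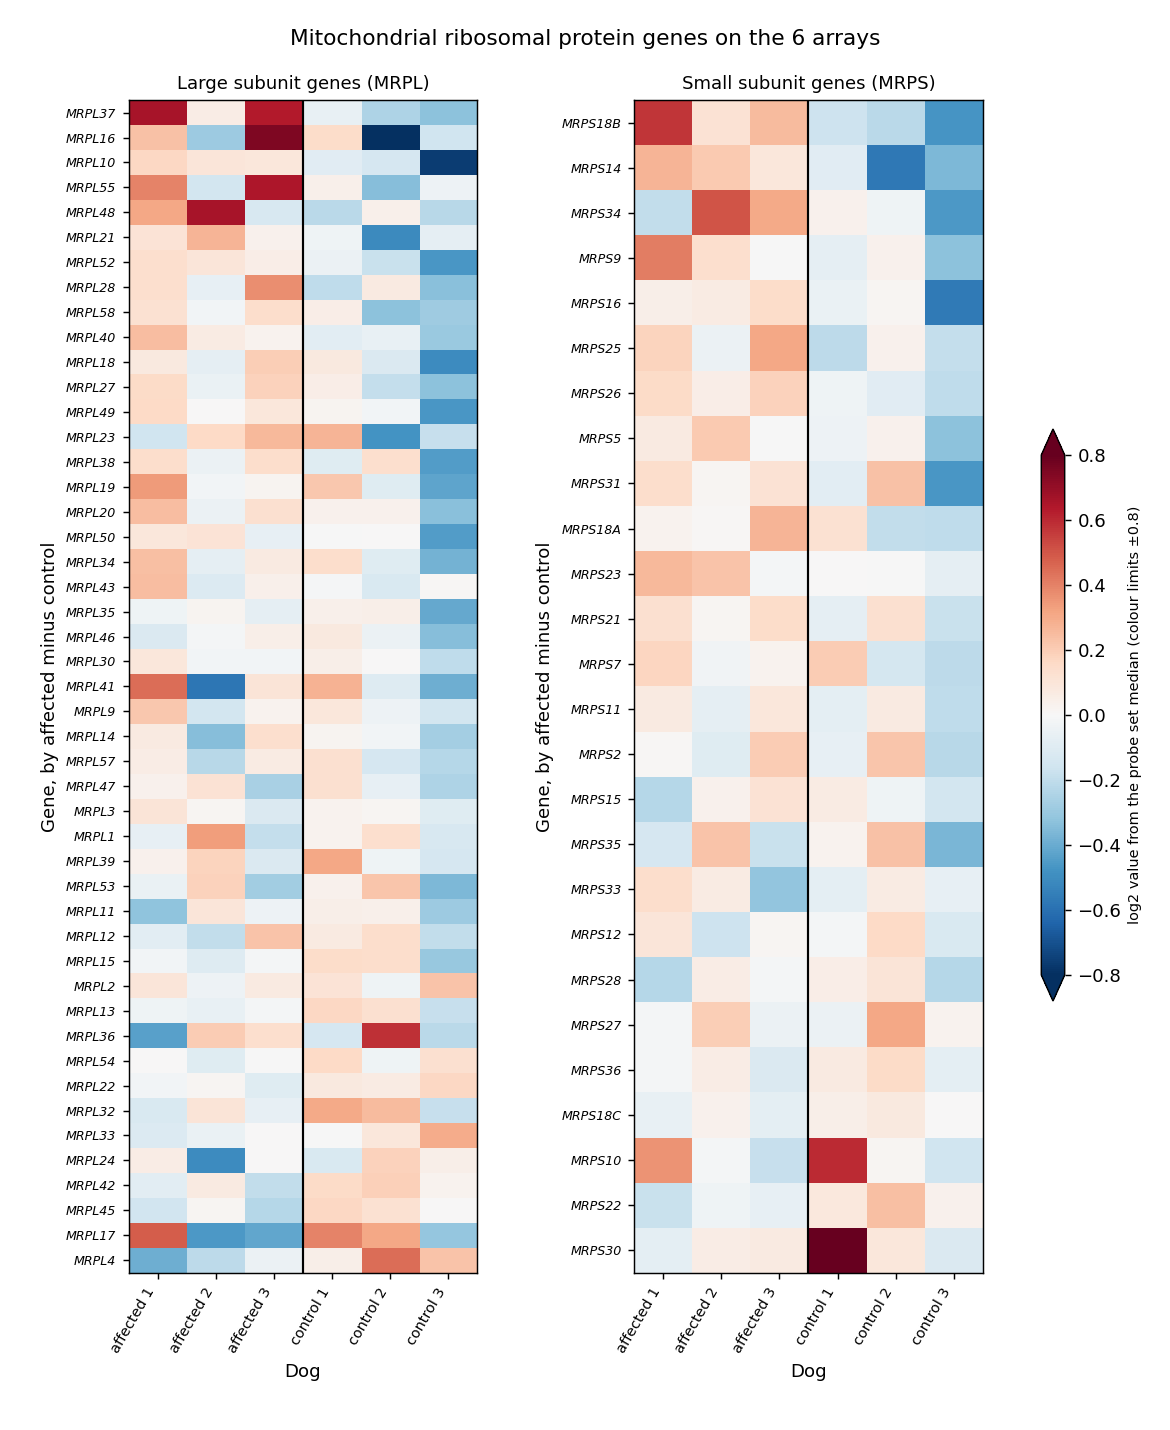
Value of each of the 73 genes (rows, ordered by affected minus control) on each of the 6 arrays (columns, affected left of the black line, control right of it), as a log2 difference from the median of the probe sets. The colours end at ±0.8, and the rightmost column of each panel, control 3, is blue in most rows.

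Among the small subunit genes, MRPS18B had the smallest p. It is a mitochondrial relative of bacterial protein S18, of which mammals have 3, MRPS18A, MRPS18B and MRPS18C. Its value was 0.57, 0.11 and 0.25 on affected 1, 2 and 3, and -0.17, -0.21 and -0.47 on control 1, 2 and 3. Every affected heart lay above every control. The difference was 0.60 (SE 0.15, 1.51-fold, limma adjusted p = 0.322), with each of its 3 probe sets higher, by 0.54 to 0.66. MRPS18A, whose protein sits on the large subunit in spite of its name, was higher by 0.20 (SE 0.13, limma adjusted p = 0.336) with overlapping groups, and by 0.11 without affected 3. MRPS18C, the S18 protein of the decoding subunit, was lower by -0.08 (SE 0.05, limma adjusted p = 0.355), and its values spanned only 0.154 over the 6 arrays, the narrowest of the 73 genes. One of its 3 probe sets followed the unexpressed tags, and after median centring its difference was -0.0035.

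MRPS14, the counterpart of bacterial S14 in the head of the small subunit, stood at 0.27, 0.21 and 0.09 on affected 1, 2 and 3, and at -0.09, -0.57 and -0.36 on control 1, 2 and 3. The groups did not overlap, and the difference was 0.53 (SE 0.14, 1.45-fold, limma adjusted p = 0.322), with both probe sets higher. MRPS26, a small subunit protein without a bacterial counterpart, was at 0.15, 0.05 and 0.19 on the affected arrays and -0.04, -0.09 and -0.20 on the controls. This was a small difference, 0.24, with a small error (SE 0.07, limma adjusted p = 0.322), again without overlap.

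MRPS22, a mitochondria-specific protein of the small subunit and one of the human cardiomyopathy genes, went the other way. Its single probe set stood at -0.18, -0.03 and -0.06 on affected 1, 2 and 3 and at 0.09, 0.24 and 0.03 on control 1, 2 and 3. All affected values were below all control values. The difference was -0.21 (SE 0.08, 0.864-fold, limma adjusted p = 0.322). MRPS25 (0.27, SE 0.12), a mitochondria-specific protein, and MRPS9 (0.30, SE 0.15), the counterpart of bacterial S9, came next by p, and in both the groups overlapped (limma adjusted p = 0.322 each). The difference of MRPS9 was 0.19 without affected 1 and 0.20 without control 3.

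Among the large subunit genes, MRPL37, a mitochondria-specific protein, had the largest difference of all 73. It was at 0.66, 0.06 and 0.63 on affected 1, 2 and 3 and at -0.06, -0.25 and -0.33 on control 1, 2 and 3. Affected 2 lay close to control 1, while the other affected hearts were well above. The difference was 0.66 (SE 0.19, 1.58-fold, limma adjusted p = 0.322) and was 0.27 for affected 2 alone against the controls (range of limma adjusted p over the alternatives 0.165 to 0.765).

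MRPL52 and MRPL40, also without bacterial counterparts, were higher in affected hearts without overlap, by 0.33 (SE 0.12) and 0.26 (SE 0.10), both with a limma adjusted p of 0.322. For MRPL52 the values were 0.13, 0.10 and 0.06 on affected 1, 2 and 3 and -0.05, -0.18 and -0.47 on control 1, 2 and 3, so the affected hearts were close together and control 3 was the lowest. Without control 3 its difference was 0.21. For MRPL40 they were 0.25, 0.06 and 0.03 on the affected arrays and -0.09, -0.06 and -0.30 on the controls.

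MRPL4, the counterpart of bacterial L4, whose loop reaches into the tunnel through which the new chain leaves, was the gene with the clearest lower value. It stood at -0.39, -0.21 and -0.05 on affected 1, 2 and 3 and at 0.05, 0.45 and 0.23 on control 1, 2 and 3. The groups did not overlap, both probe sets were lower, by -0.51 and -0.40, and the gene's difference was -0.46 (SE 0.14, 0.728-fold, limma adjusted p = 0.322). MRPL45, which holds the ribosome to the inner membrane near the tunnel's exit, was lower by -0.22 (SE 0.09, limma adjusted p = 0.322), with affected 2 at 0.02, above control 3 at 0.01. It was at -0.08 for affected 2 alone against the controls. MRPL22, whose bacterial counterpart also lines the tunnel, differed by -0.14 (SE 0.06, limma adjusted p = 0.322), but 2 of its 4 probe sets followed the unexpressed tags, and without these the difference was 0.02.

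**Figure D2:**
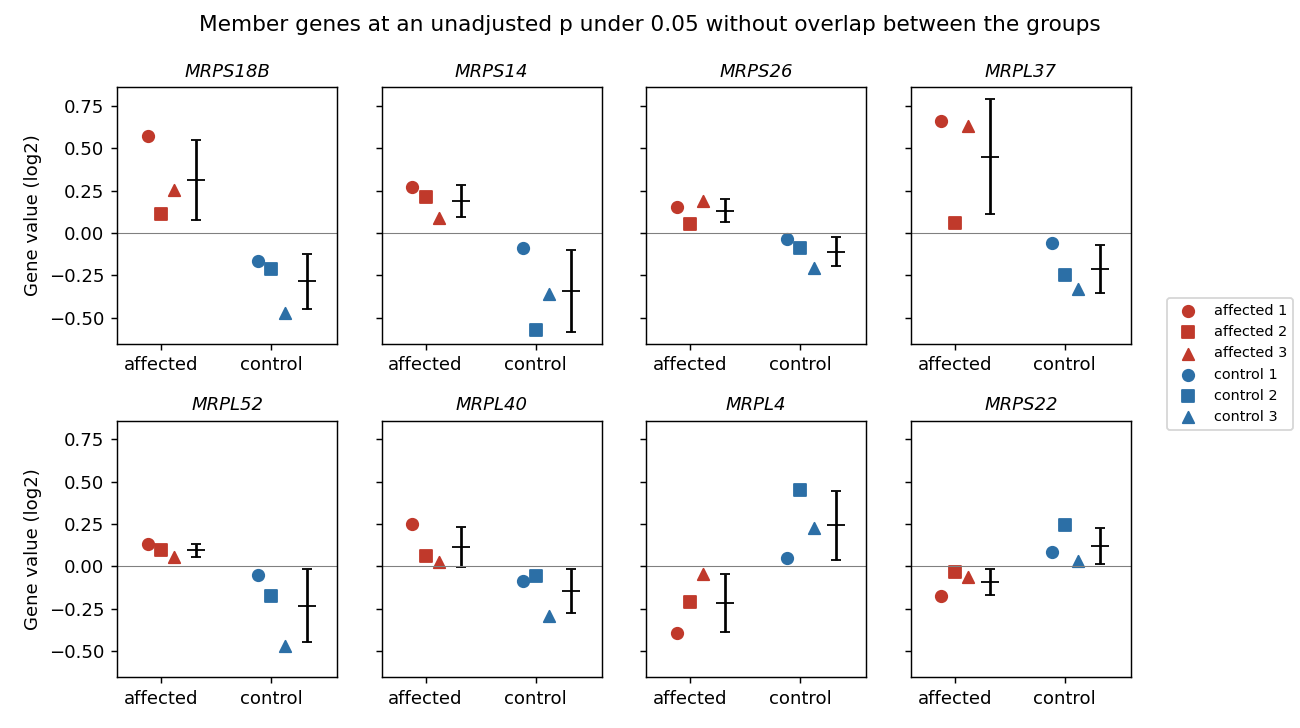
Gene value (log2, vertical axis) of the 8 genes at an unadjusted p under 0.05 whose affected hearts lay apart from the controls, with 1 symbol per dog and the mean ± SD of each group (n = 3) beside the points. The first 6 panels are higher in affected hearts, by 0.24 to 0.66, and MRPL4 and MRPS22 are lower, by -0.46 and -0.21.

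Lack of overlap was counted for all genes, since it depends on the background too. The groups lay apart with affected higher in 9 of the 73 genes (12.3%), against 5.8% of all genes, and with affected lower in 3 (4.11%), against 41.7% of all genes. Among genes with no probe set following the unexpressed tags these shares were 10.2% and 9.45%. By probe set, 22 of the 162 lay apart with affected higher, against 5.37% of all probe sets, and 21 with affected lower, against 46.9%. The genes not yet named with affected higher were MRPL10, which anchors the stalk that binds translation factors, MRPL21 and MRPS16. MRPL10 was at 0.17, 0.10 and 0.09 on affected 1, 2 and 3 and at -0.09, -0.13 and -0.76 on control 1, 2 and 3. Control 3 was far below the other controls, and the difference was 0.45 (SE 0.19, limma adjusted p = 0.322), or 0.23 without that array. For MRPS16 the same array stood at -0.57, with the other controls at -0.05 and 0.02, and the difference was 0.29 (SE 0.17, limma adjusted p = 0.323), or 0.10 without it. With 1 array left out the count of higher genes apart ran from 9 to 20 and that of lower genes from 4 to 12, since fewer arrays overlap less easily. There were 20 higher without affected 2, 18 without control 1, 18 without control 2 and 14 without affected 3, and 12 lower without control 3, 6 without affected 2 and 5 without control 2. Of all genes, between 6.82% and 12.7% then lay apart with affected higher and between 43.1% and 48.2% with affected lower.

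The large and small subunits, assigned by symbol, were then set side by side, so MRPS18A and MRPS30 counted as small here. Differences above 0 were found in 30 of 47 MRPL genes (63.8%) and in 17 of 26 MRPS genes (65.4%), against 35.0% of all genes and 59.9% of genes with no probe set following the tags. The median difference was 0.06 for MRPL genes and 0.10 for MRPS genes, against -0.07 for all genes and 0.08 for those with no such probe set. The 62 mitochondrial ribosomal genes with no such probe set had a median of 0.09, and 44 of them were above 0. Sets without such probe sets were picked by a pattern that is itself lower in affected hearts. No p is given for a median over these genes, because they were chosen with results of these arrays known. The gap between the subunits, MRPL minus MRPS, was -0.04, less than the SD of 0.06 between dogs of a group. After quantile normalization 42 of the 73 genes were above 0 (57.5%), against 44.4% of all genes, and after centring on the median of each array 57 were (78.1%), against 48.9%.

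On single arrays the MRPL median was 0.09, -0.02 and 0.03 on affected 1, 2 and 3, and 0.05, -0.02 and -0.23 on control 1, 2 and 3. The MRPS median was 0.07, 0.06 and 0.05 on the affected arrays and -0.02, 0.05 and -0.20 on the controls. Both subunits were thus low on control 3 and near the other hearts on control 1 and control 2. Control 3 held the lowest value in 39 of the 73 genes (53.4%), where it did so in 19.3% of all genes and in 33.9% of genes with no probe set following the tags. The highest value fell on affected 1 in 20 genes, on affected 2 in 7, on affected 3 in 15, on control 1 in 13, on control 2 in 15 and on control 3 in 3.

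Without control 3, the median difference was -0.02 for MRPL genes and 0.02 for MRPS genes, and 36 of the 73 genes (49.3%) were above 0, against 32.8% of all genes, whose median was -0.05. The direction of the MRPL median therefore turned when this array was left out. With any other array left out, between 45 and 56 genes were above 0, against 33.6% to 36.6% of all genes. Control 3 was the youngest dog, at 4 years, and the sole Greater Swiss Mountain dog. With age as a covariate 16 genes were higher at an unadjusted p under 0.05 (21.9%), against 7.43% of all genes, and 3 were lower (4.11%), against 19.4%. In that fit 0 passed the adjusted threshold (limma, smallest adjusted p of these genes 0.185).

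**Figure D3:**
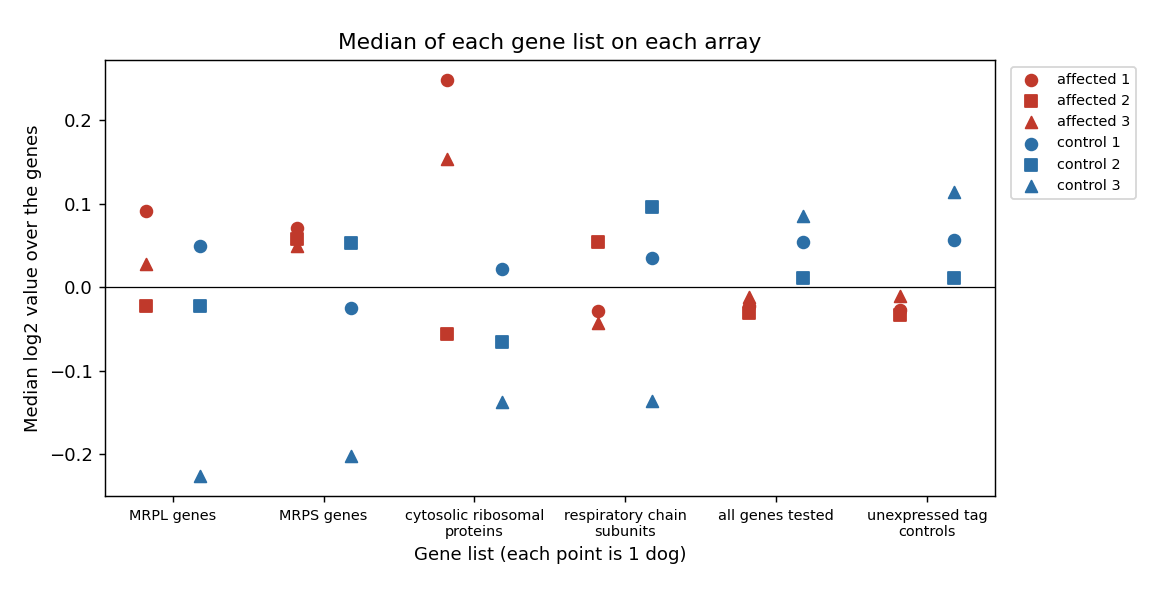
Median log2 value over the genes of each list (horizontal axis) on each array (1 point per dog, affected left of control within each list). Control 3 is the lowest point for both subunits, at -0.23 and -0.20, and the highest for all genes and for the unexpressed tags, at 0.09 and 0.11.

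Proteins with a bacterial counterpart and mitochondria-specific ones were also separated, leaving out MRPS36. Differences were above 0 in 29 of 45 genes with a counterpart, with a median of 0.06, and in 18 of 27 without one, with a median of 0.10. Within the MRPL names these medians were 0.03 for 30 genes with a counterpart and 0.10 for 17 without, and within the MRPS names 0.11 for 15 and 0.09 for 10. At an unadjusted p under 0.05, 3 of the 17 mitochondria-specific MRPL genes were higher and 1 was lower, against 0 higher and 1 lower among the 30 with a counterpart. Of all genes 4.88% were higher and 5.64% lower at that p. None of these genes passed the adjusted threshold, and the split was not tested.

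**Figure D4:**
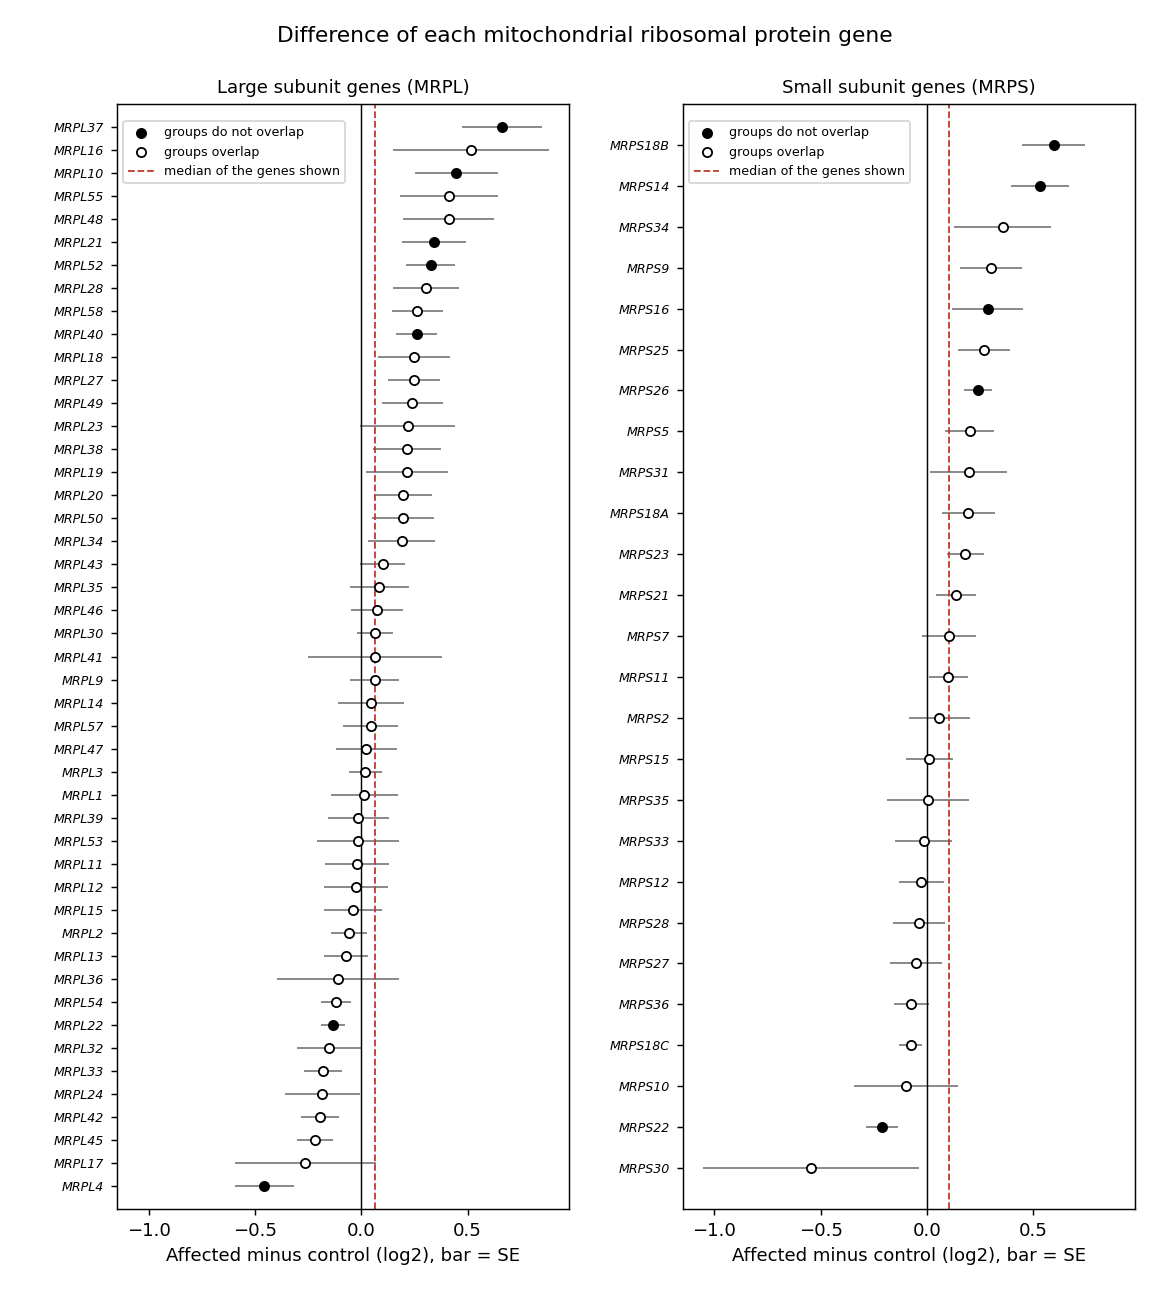
Affected minus control (log2, horizontal axis) of each gene with its SE as a bar (n = 3 dogs a group), filled where the groups did not overlap. Points run from -0.46 to 0.66 for MRPL genes and from -0.55 (MRPS30) to 0.60 for MRPS genes, and the dashed medians stand at 0.06 and 0.10.

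Of the genes picked for what is known of them, MRPL3, MRPL12 and MRPS36 showed little. MRPS18B and MRPS22, picked on the same grounds, had groups that lay apart, as given above. MRPL3, the counterpart of bacterial L3 and a human cardiomyopathy gene, stood at 0.10, 0.02 and -0.11 on affected 1, 2 and 3 and at 0.03, 0.02 and -0.10 on control 1, 2 and 3. Its difference was 0.02 (SE 0.08, limma adjusted p = 0.877). MRPL12, the counterpart of the bacterial stalk protein that recruits translation factors, differed by -0.03 (SE 0.15, limma adjusted p = 0.916), and its 2 probe sets differed in sign, at 0.06 and -0.11. MRPS36, since placed in the oxoglutarate dehydrogenase complex and not in the ribosome, differed by -0.07 (SE 0.08, limma adjusted p = 0.546). No probe set was named here for MRPL44, another human cardiomyopathy gene.

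The widest spread over the 6 arrays belonged to MRPS30, whose protein is part of the large subunit in spite of its name. The gene value was 1.72 on control 1, against -0.08, 0.06 and 0.07 on affected 1, 2 and 3 and 0.09 and -0.12 on control 2 and control 3. This came from 1 of its 3 probe sets, which stood at 5.22 on control 1 and between -0.08 and 0.29 on the other 5 arrays. On the other probe sets control 1 was at -0.03 each time, and their differences were 0.17 and 0.09. The difference of the gene, -0.55 (SE 0.51, limma adjusted p = 0.466), became 0.03 without control 1 and 0.12 with the median of the probe sets. MRPL16, whose bacterial counterpart lies near the tRNA sites, was the next widest, at 0.24, -0.29 and 0.75 on the affected arrays and 0.15, -0.84 and -0.16 on the controls. Its 2 probe sets ran together, differing by 0.58 and 0.45, and the gene's difference of 0.52 (SE 0.37, limma adjusted p = 0.363) was 0.24 without control 2, 0.26 without affected 3, 0.78 without affected 2 and -0.01 for affected 2 alone.

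Probe sets of a gene often disagreed. Of the 58 genes with more than 1 probe set, 33 had all of them on the same side of 0 and 25 had them on both sides, and in 6 genes they lay more than 0.5 apart. MRPL21, the counterpart of bacterial L21, had 4 probe sets. One of them differed by 1.44 (SE 0.33, limma adjusted p over all probe sets 0.296), at 0.55, 0.79 and 0.37 on affected 1, 2 and 3 and -0.37, -1.53 and -0.70 on control 1, 2 and 3. The others differed by -0.07, -0.04 and 0.04, and the first of these followed the unexpressed tags. The gene value therefore differed by 0.34 (SE 0.15, limma adjusted p = 0.322), by 0.09 with the median of the probe sets and by 0.19 without control 2. MRPL2, whose bacterial counterpart helps to form the site of peptide bond formation, had 1 probe set at 0.42 (SE 0.11) and 1 at -0.53 (SE 0.23), each without overlap between the groups (limma adjusted p over all probe sets 0.296 each). The lower one followed the unexpressed tags. The gene value, their mean, differed by -0.06 (SE 0.08, limma adjusted p = 0.639). Of the 162 probe sets, 10 carried the suffix that the array maker gives to sets whose probes may bind other transcripts, and 72 the suffix for sets shared by several transcripts, so related sequences may contribute to these values.

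**Figure D5:**
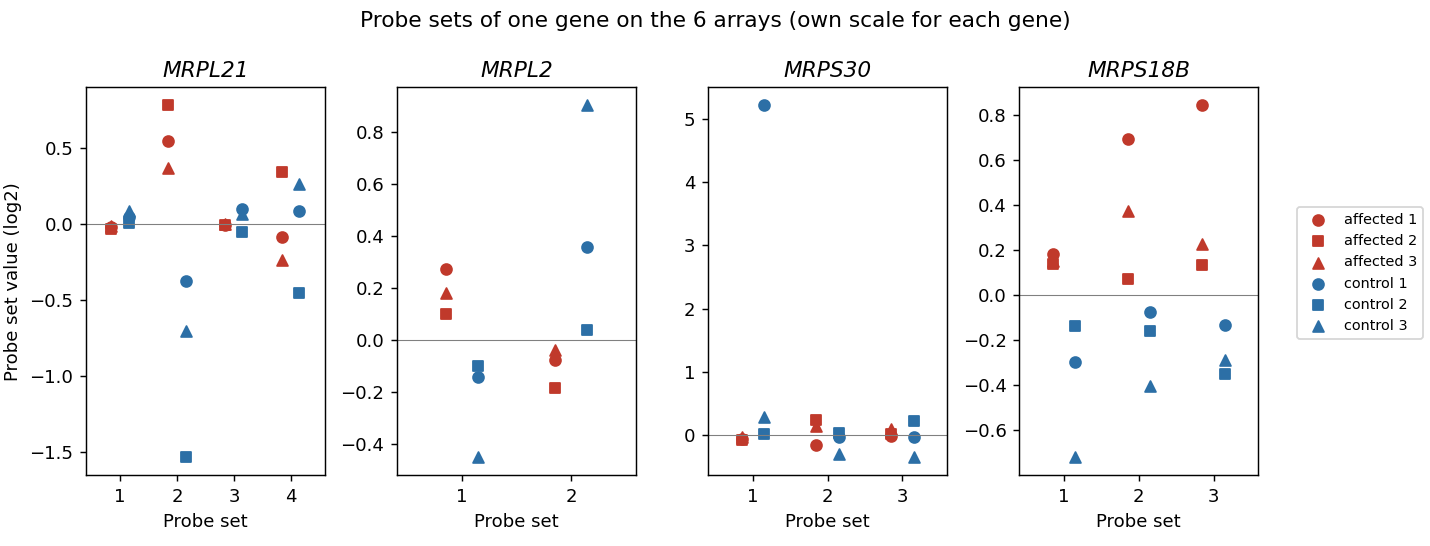
Value of each probe set (log2, vertical axis, own scale per gene) of MRPL21, MRPL2, MRPS30 and MRPS18B, with 1 symbol per dog and affected left of control. The probe sets of MRPS18B run alike, those of MRPL21 and MRPL2 do not, and a single point at 5.22 on control 1 sets the MRPS30 value.

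The 52 genes not named by the selection rule were small in both subunits, with differences from -0.26 to 0.45 for 36 MRPL genes and from -0.10 to 0.36 for 16 MRPS genes. Their limma adjusted p ran from 0.322 to 0.961 and from 0.322 to 0.987. Some of them varied widely within a group. MRPL17 was at 0.48, -0.46 and -0.42 on affected 1, 2 and 3 and 0.39, 0.31 and -0.31 on control 1, 2 and 3. MRPL41 was at 0.44, -0.58 and 0.11 on the affected arrays and 0.28, -0.11 and -0.39 on the controls, so that neither group held together.

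Other genes of mitochondrial translation were taken from lists. Of 5 ribosomal proteins with other symbols, 4 were above 0 and the median difference was 0.23, led by CHCHD1 at 0.35 (SE 0.16), DAP3 at 0.23 (SE 0.17) and GADD45GIP1 at 0.28 (SE 0.24). In 14 translation factors the median was 0.02, and 1 was higher at an unadjusted p under 0.05, the initiation factor MTIF3 at 0.44 (SE 0.16). The elongation factor GFM2 differed by -0.53 (SE 0.23). None of these lists, nor the others below, held a gene past the adjusted threshold in limma. Their counts at the unadjusted p stand against the 4.88% higher and 5.64% lower of all genes. Their counts above 0 and their medians stand against 35.0% and -0.07 for all genes. Over the 17 alternatives the median ran from 0.02 to 0.30 for the proteins with other symbols and from -0.03 to 0.13 for the translation factors.

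Of 19 assembly factors, 2 were higher and 1 lower at an unadjusted p under 0.05, and the median was 0.14, between 0.06 and 0.21 over the alternatives. DHX30, an RNA helicase needed for assembly of the mitochondrial ribosome, was at 0.48, 0.30 and 0.69 on affected 1, 2 and 3 and -0.51, -0.30 and -0.40 on control 1, 2 and 3. Affected hearts were above all controls, by 0.90 (SE 0.12, limma adjusted p = 0.322). METTL17, a methyltransferase-like factor of the small subunit, was higher by 0.74 (SE 0.26) and TRUB2, a pseudouridine synthase, lower by -0.51 (SE 0.09), each without overlap. Of all genes, 5.8% lay apart with affected higher and 41.7% with affected lower. TRUB2 was at -0.23, -0.16 and -0.15 on the affected arrays and 0.43, 0.15 and 0.42 on the controls. The unexpressed tags, too, were lower on every affected array. Whether lower genes of this and the other lists followed the tags was not examined gene by gene. Of 18 mitochondrial aminoacyl-tRNA synthetases, which charge the tRNAs, 2 were higher, FARS2 at 0.26 (SE 0.07) and CARS2 at 1.48 (SE 0.54), and 2 lower, EARS2 at -0.36 (SE 0.14) and LARS2 at -0.17 (SE 0.07), with a median of -0.01 (-0.05 to 0.08 over the alternatives). In 18 genes of mitochondrial DNA and transcription none reached that p and the median was -0.07 (-0.10 to 0.03 over the alternatives). The first by p were POLRMT, the mitochondrial RNA polymerase, at 0.36 (SE 0.17), POLG, the mitochondrial DNA polymerase, at 0.48 (SE 0.22) and the transcription factor NRF1 at -0.10 (SE 0.05).

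The cytosolic ribosome and the respiratory chain were the lists most like these genes. Of 57 cytosolic ribosomal proteins 46 were above 0, with a median of 0.19, and 7 were higher and 1 lower at an unadjusted p under 0.05, with RPL35 at 0.42 (SE 0.06), RPS16 at 0.33 (SE 0.10) and RPL37A at -0.23 (SE 0.08) first. Of 62 respiratory chain subunits 27 were above 0, with a median of -0.01, and 3 were higher and 1 lower, with NDUFS5 at 0.24 (SE 0.05), ATP5F1A at -0.19 (SE 0.05) and NDUFB7 at 0.17 (SE 0.06) first and NDUFA13 at 0.19 (SE 0.07) after them. LARS2 and NDUFA13 were named after their values were seen. Control 3 was the lowest array for both lists, at -0.14 each. The medians ran from -0.01, with affected 2 alone, to 0.27 for the cytosolic ribosome and from -0.10 to 0.07 for the respiratory chain over the alternatives. Of all genes 35.0% were above 0, with a median of -0.07. The lists were not tested against each other.

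Markers of other cell types and of RNA quality were read on the same arrays. Fibroblast markers were above 0 in 7 of 8 genes, with list medians of 1.16, 0.06 and 0.61 on affected 1, 2 and 3 and -0.32, -0.14 and -1.61 on control 1, 2 and 3, so control 3 was lowest there as well. Cardiomyocyte markers were above 0 in 8 of 9 genes, with medians of 0.08, 0.01 and 0.12 on the affected arrays and 0.02, -0.09 and -0.18 on the controls. Of the markers of macrophages and monocytes, 8 of 8 were above 0, with medians of 2.17, -0.05 and -0.01 on the affected arrays and 1.26, -0.43 and -0.61 on the controls. Endothelial markers were above 0 in 2 of 7, smooth muscle and pericyte markers in 4 of 6, T and B cell markers in 1 of 7, adipocyte markers in 3 of 5 and the red cell marker in 0 of 1. All these counts stand against 35.0% of all genes above 0. Summed levels and markers at 0 could not be given for values centred per probe set. For RNA quality, the 3' end of the actin and GAPDH controls was set against their 5' end, where a high difference is a sign of RNA breakdown. This averaged 0.20, -0.06 and 0.23 on the affected arrays and -0.05, 0.11 and -0.17 on the controls, lowest on control 3. Both ends are centred over the 6 arrays, so these values compare arrays and cannot show whether RNA was intact. The 4 pairs of ends behind each average did not run together: on affected 3 an actin pair stood at 1.05 and the others between -0.06 and -0.0020, and on affected 1 the actin pairs were at 0.36 and 0.42 but the GAPDH pairs at 0.06 and -0.01. The part of these in the values of the mitochondrial ribosomal genes was not tested.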

How the data were processed

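The deposited values were taken as log2, with the base inferred from their range and from GCRMA, which the submitters' processing notes name with MAS5 without role, order or version. RNA was column-purified and labelled by a 1-cycle protocol, per the labels' protocols. Every probe set's median over the 6 arrays was 0 (largest absolute median 5e-07), so values are centred. The 111 control probe sets were kept out of the fits. The genome build is not given in the sources used here, and no coordinates are printed.

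Gene values were fitted with limma 3.58.1 in R 4.3.3 (lmFit, eBayes, group as the sole factor, two-sided, 4 residual and 1.28 prior degrees of freedom), adjusted over 15115 genes, and probe sets over 42924. Current RefSeq symbols matched for 67 of 73 genes by identifier. The members and lists were chosen with earlier results of these data known. Named genes were, per subunit, the 6 with the smallest p and the 3 with the largest difference, then the 3 with the widest probe set disagreement and 8 of known role. Others were singled out after their values were seen. The number of arrays, 3 in each group, limits the precision. The fit was tested on simulated data with 200 changed genes. Of changes of 0.5 on the log2 scale 34% passed the adjusted threshold, and of changes of 1, 58%. The changed genes were drawn from all genes, whose SE had a median of 0.110, against 0.139 for the mitochondrial ribosomal genes. These shares may therefore be too high for the latter. Differences of the size seen here could thus often be missed. Deviations of same-numbered dogs correlated at 0.25, 0.16 and 0.06. Differently numbered dogs were not compared in this way, so these values cannot decide whether the numbers are pairs. The numbers were not taken as pairs in the main fit. No 2 arrays were alike.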

Additional observations from a re-analysis of the deposited data

How the results depend on the processing

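None of the genes fitted passed the adjusted threshold in limma under any of the 17 alternative fits. All 73 were fitted in each, except that the filter on range kept 69. Apart from affected 2 alone, the counts at an unadjusted p under 0.05 ran from 4 to 16 higher and from 0 to 5 lower. With affected 2 alone against the controls the affected group has no spread of its own and is assumed to vary like the controls, so a lack of calls there says nothing of stability. Higher genes at that p numbered 1 in that fit, 16 with age and 10 after median centring, and between 4 and 9 with 1 array left out. Lower genes numbered 1 with the filter on range, after quantile normalization, with sex and without probe sets that followed the unexpressed tags, and 0 after median centring. Of all genes, 2.98%, 6.95%, 5.78%, 2.26% and 2.23% were lower in these settings, in that order. With 1 array left out, lower genes numbered between 0 and 5, with 0 without affected 1, 5 without control 3 and 1 without control 1, control 2 or affected 3. Of all genes 1.85% to 24.0% were then lower at that p. Of the 73 genes, those whose groups lay apart numbered 17 higher and 13 lower with affected 2 alone, against 15.7% and 53.4% of all genes. Lower ones numbered 7 with each gene's widest-ranging probe set, 6 with the median of the probe sets and 1 after median centring. The shares of all genes apart with affected lower were 42.2%, 44.4% and 15.3% there, in that order. With 1 array left out, 9 to 20 of the 73 genes lay apart higher and 4 to 12 lower. Of all genes, 6.82% to 12.7% then lay apart higher and 43.1% to 48.2% lower. The MRPL median then ran from -0.02 to 0.14, the MRPS median from 0.02 to 0.16 and their gap from -0.08 to 0.00075. These medians moved by less than 1 SD between dogs under every alternative, subunits by structure (MRPS18A and MRPS30 counted as large, MRPS36 left out) and means over genes included. That SD holds control 3 itself: the SD of the MRPL medians was 0.14 among controls and 0.06 among affected hearts. The check therefore cannot show stability to leaving out control 3, which turned the MRPL median to -0.02. The replicate block gave 9 higher and 4 lower genes at an unadjusted p under 0.05, against 5.54% and 4.44% of all genes. It left the medians the same, and no gene passed the adjusted threshold there. Medians of the other lists moved by more than 1 SD between dogs under 7 of the alternatives for assembly factors, 6 for mitochondrial DNA and transcription, 5 each for translation factors and aminoacyl-tRNA synthetases, 3 for ribosomal proteins with other symbols, 1 for the cytosolic ribosome and 0 for the respiratory chain.

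Of 21 named genes 14 kept their direction throughout. MRPL12 turned to 0.048 after median centring and 0.0074 with age, and ran from -0.15 to 0.064 with 1 array left out (above 0 without control 1, control 2, affected 1 and affected 2). MRPL16 turned to -0.0066 with affected 2 alone, and MRPS36 to 0.010 there and 0.0065 with the median of the probe sets. MRPL2 turned to 0.014 after median centring and 0.42 without the probe set following the tags, and ran from -0.12 to 0.0045, the last without control 3. MRPL22 turned to 0.020 without such probe sets. MRPL3 turned to -0.066 with the widest-ranging probe set, and ran from -0.033 to 0.077 (below 0 without control 3 and affected 1). MRPS30 turned to 0.12 with the median of its probe sets and ran from -0.89 to 0.031, the last without control 1. Levels, detection and signal over background could not be judged from centred values.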
